A study of Mus musculus with 17 samples.

Results

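Elicited peritoneal macrophages of Balb/cJ and C57Bl/6EiJ mice were compared by polyA RNA-seq, with 3 Balb/cJ libraries against 2 C57Bl/6EiJ libraries, 5 of the 17 samples of the series. These thioglycollate-elicited macrophages (TGEMs) are cells that enter the peritoneal cavity after injection of an irritant broth. They were taken 3 days after the injection, from mice that the study's methods give as 8 weeks old and male. The Balb/cJ libraries are 1 vehicle library and 2 libraries of cells given Kdo2 lipid A (KLA), a lipopolysaccharide that activates the receptor TLR4, for 1 h at 100 ng per ml. The C57Bl/6EiJ libraries are 1 vehicle and 1 KLA library. The labels name the second strain C57Bl/6EiJ and the methods C57Bl/6J. The time in culture is 3 days in the labels and 1 day in the methods. A further 8 libraries of immortalised bone marrow-derived macrophages (iBMDMs), also labelled C57Bl/6EiJ and transformed with a retrovirus that carries Braf and Myc, are quoted as levels only. They are 2 libraries each of cells labelled scramble control and of cells labelled as Atf3, Jun and Jund knockouts, and ranges over them span these genotypes.

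Inbred strains carry different alleles at many genes of immunity, among them the major histocompatibility complex (MHC), which loads peptides for T cells, and clusters of receptors and interferon-induced genes that exist in many near-identical copies. Gene families of recent origin are also where short reads are hardest to place, since a read from one copy can match another.

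Values are RPKM (reads in exons, divided by exon length in kilobases and by library depth) as the authors deposited them for 24453 gene models. Library depth was 17245888 and 6580058 reads in the Balb/cJ KLA libraries 1 and 2, 2342456 in Balb/cJ vehicle, 3253632 in C57Bl/6EiJ KLA and 11404485 in C57Bl/6EiJ vehicle. The date in the labels is a December day for Balb/cJ vehicle and KLA 1, 26 February for Balb/cJ KLA 2 and 17 February for both C57Bl/6EiJ libraries. No date holds both strains, and the Balb/cJ reads were aligned to a genome of their own, so strain, label date and alignment genome cannot be told apart. Of log2 values over the tested models, the Balb/cJ KLA libraries correlated with Pearson's r of 0.969 and the C57Bl/6EiJ pair with 0.938. Balb/cJ vehicle, the shallowest library, correlated with the other 4 at 0.826 to 0.891. Xist, the transcript of the inactive X chromosome in females, was read at 19.2 to 28.1 RPKM in all 5 libraries, and the Y-linked Ddx3y and Kdm5d at 0, which goes against the male label. Only autosomal models are compared here.

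The cells were first set against markers of macrophages and of other cells. The summed level of 8 macrophage markers was 8742 to 10847 RPKM in Balb/cJ and 7803 to 8329 in C57Bl/6EiJ, and nearly all of it came from Lyz2 and Cd68 (log2 differences 0.20 and 0.44, not called). Of the 8, Csf1r and Mertk were called lower (-1.37 and -1.44) and none higher, and Adgre1, Itgam and Fcgr1 were at -0.98, -0.79 and -1.52 without a call. Markers of large resident peritoneal macrophages, the cells that occupy the cavity before injection, summed to 7.9 to 12.9 RPKM in Balb/cJ and 29.5 to 33.3 in C57Bl/6EiJ. Of these 8 markers, Cd5l was called lower in Balb/cJ, and without it the sums were 7.12 to 12.5 against 12.4 to 12.8 RPKM and overlapped. Markers of neutrophils summed to 2.28 to 13.4 RPKM against 1.1 to 10.4, of B cells to 11.2 to 25.2 against 11.7 to 14.9, of T cells to 1.21 to 3.39 against 0.142 to 1.07, and of mesothelial cells or fibroblasts to 45 to 91.8 against 59.9 to 68.6. Eosinophil markers summed to 1.47 to 2.43 RPKM against 2.67 to 4.24 and dendritic cell markers to 1.00 to 1.69 against 2.41 to 3.71. Both sums were apart between strains, as was that of T cells in the opposite direction. In C57Bl/6EiJ the eosinophil sum was nearly all Siglecf (0.513, 1.14 and 1.83 RPKM against 2.67 and 4.06, not called). Il5ra of the same markers went the other way, at 0.845, 0.328 and 0.601 RPKM against 0 and 0.087. Mast cell markers summed to 19.2 RPKM in Balb/cJ KLA 2 and to 1.78 to 7.6 in the other 4 libraries. The part of these cells in the differences was not tested. The natural killer and erythroid sums stayed at or below 0.914 RPKM. In bulk RNA, fewer cells of a type and less RNA per cell cannot be told apart.

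Of 9848 tested models (autosomal, 200 bases or longer, averaging 1 RPKM or more across the 5 libraries), 222 were called different between strains by limma with treatment as a covariate, which is 2.25% of those tested. A call needed an adjusted p under 0.05, a 2-fold or larger change and, in either strain, an average of 16 RPKM or more. The adjusted p alone was under 0.05 in 485 models (4.92%). Of the 222 called models, 79 were higher in Balb/cJ (0.802%) and 143 lower (1.45%). This share of higher calls, 35.6%, moved with scaling, to 89 higher and 106 lower (45.6%) when libraries were set to equal medians and to 57 and 63 (47.5%) after the GC trend of each library was removed. Higher calls became the majority when either vehicle library was left out and with the KLA libraries alone. The median log2 difference of all tested models was -0.08 as deposited, -0.01 at equal medians and -0.02 without the GC trend. Leaving out Balb/cJ KLA 1 left 43 calls, and leaving out C57Bl/6EiJ KLA gave 436. In each comparison the log2 difference is Balb/cJ minus C57Bl/6EiJ on the log2(RPKM + 1) scale, which understates the change of low genes, and its error is the SE of the fit.

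**Figure D1:**
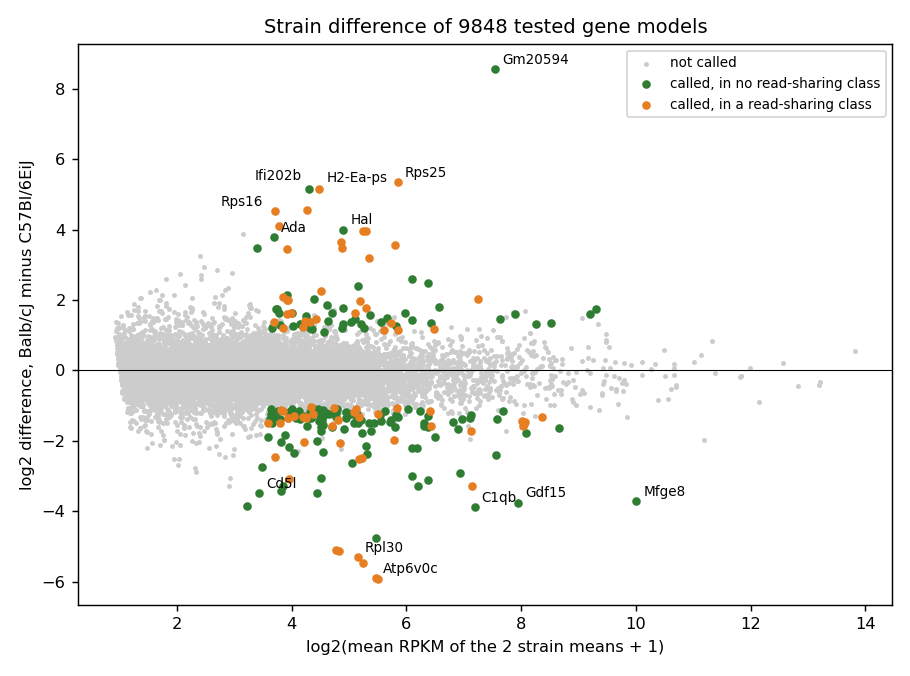
Each point is 1 of the 9848 tested gene models. The x axis is the log2 of the mean RPKM of both strains plus 1, and the y axis the log2 difference between strains, with Balb/cJ higher above 0. Green and orange points are the 222 called models outside and inside a read-sharing class. Gm20594 lies highest at 8.54, and Atp6v0c and its pseudogene model lie lowest at -5.90 and -5.93.

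Hal (histidine ammonia-lyase, which turns histidine into urocanate) and Ada (adenosine deaminase) were among the genes called higher in Balb/cJ. Hal measured 46.3, 69.3 and 50.5 RPKM in Balb/cJ and 2.82 and 2.13 in C57Bl/6EiJ, 55.4 ± 12.2 (SD, n = 3) against 2.48 ± 0.485 (n = 2). The log2 difference was 3.99 ± 0.29 (SE, limma adjusted p = 0.000109). Ada measured 30.1, 21.8 and 15.9 RPKM in Balb/cJ and 2.6 and 0 in C57Bl/6EiJ, a log2 difference of 3.79 ± 0.32 (limma adjusted p = 0.000162). Levels of both genes in iBMDMs were at most 1.77 RPKM. The calls of Hal and Ada were kept under all 17 alternatives that keep the call rule, and removal of the GC trend left log2 differences of 4.07 and 4.00. Nos2, the nitric oxide synthase of activated macrophages, held 12 reads in Balb/cJ and 1 in C57Bl/6EiJ and was below the filter.

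The 3 chains of C1q, which starts the classical complement pathway, were called lower in Balb/cJ, and so was Mfge8, a secreted bridge between phosphatidylserine on dying cells and integrins of the phagocyte. C1qb measured 14.5, 15.9 and 24.3 RPKM in Balb/cJ vehicle, KLA 1 and KLA 2 and 293 and 250.1 in C57Bl/6EiJ vehicle and KLA. C1qc measured 11.4, 16.1 and 24.2 RPKM against 170.1 and 124. C1qa measured 7.13, 13.2 and 19.3 against 68 and 60.2. In all 3 genes the February library was the highest of Balb/cJ and still below both of C57Bl/6EiJ. The log2 differences were -3.88 ± 0.31 for C1qb (limma adjusted p = 0.000112), -3.10 ± 0.34 for C1qc (0.00105) and -2.38 ± 0.34 for C1qa (0.00525). The call of C1qa was lost without Balb/cJ KLA 1 (range over alternatives 1.44e-08 to 0.0969), and those of C1qb and C1qc were kept under all 17. The 3 genes lie next to each other on chromosome 4, from C1qb at 136880145 to C1qa at 136898844 (mm10). The other 20 of 23 tested Fc receptor and complement genes were not called, with 11 of the 23 above 0 and 12 below, and the median of the list was -0.06.

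Mfge8 measured 108, 186 and 169.8 RPKM in Balb/cJ and 1841 and 1946 in C57Bl/6EiJ, 155 ± 41.2 (SD, n = 3) against 1894 ± 74.1 (n = 2). That is 12.2-fold lower in Balb/cJ, a log2 difference of -3.72 ± 0.28 (limma adjusted p = 0.000109). In iBMDMs, which share the C57Bl/6EiJ label, Mfge8 measured 3.44 to 12.7 RPKM, below both strains of elicited cells. C1qb there measured 371 and 238 RPKM in the scramble control and up to 2313 RPKM in a library labelled Jund knockout.

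Single genes with roles in macrophages were called lower too, and are named from the calls and not from a list that moved. Cd5l, a secreted scavenger receptor protein, measured 0.421, 0.772 and 1.57 RPKM in Balb/cJ and 16.6 and 20.9 in C57Bl/6EiJ (-3.48 ± 0.28, limma adjusted p = 0.000118). It is also 1 of the markers of large resident peritoneal macrophages and made up most of the strain difference in their sum. Other markers of those cells were low in both strains. Gata6 measured 3.08, 3.51 and 2.43 RPKM against 5.64 and 3.86, and Icam2 3.01, 1.58 and 2.54 against 4.63 and 6.49. Both were lower in Balb/cJ without a call (-0.47 and -0.96). Prg4 went the other way at 0.50, and Timd4 and Alox15 were read in Balb/cJ alone, at no more than 0.421 RPKM. The part of resident cells in these differences was not tested. Pf4, a chemokine of platelets and macrophages, measured 1.47, 3.38 and 3.91 RPKM against 40.3 and 36.9 (-3.47 ± 0.30, limma adjusted p = 0.000168). Siglec1, a sialic acid receptor, measured 1.68, 1.87 and 2.48 RPKM against 16.8 and 20.1 (-2.74 ± 0.25, limma adjusted p = 0.00031). C5ar1, the receptor of complement fragment C5a, measured 6.72, 31.8 and 16.5 RPKM against 88.9 and 144 (-3.0 ± 0.35, limma adjusted p = 0.00159). Csf1r, the receptor that macrophages need for growth, measured 58.6, 83.1 and 72.3 RPKM against 173 and 183 (-1.37 ± 0.27, limma adjusted p = 0.0254), a call kept in 11 of 17 alternatives.

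The remaining genes with the largest differences outside the read-sharing classes have varied roles. Lower in Balb/cJ were Vsig8, a membrane protein of the immunoglobulin family (0, 0.324 and 0.424 RPKM against 17.9 and 15.1), Gdf3, of the TGF-β family (0.406, 1.6 and 3.39 against 27.1 and 21.6), and Mcoln3, a cation channel of endosomes and lysosomes (2.01, 1.26 and 1.79 against 22.7 and 27.9). Their log2 differences were -3.85, -3.42 and -3.29. Higher in Balb/cJ were Gng10, a γ subunit of G proteins (136, 141 and 139 RPKM against 29.7 and 20.1), Arsb, the lysosomal arylsulfatase B (83.7, 54.2 and 38.6 against 10.5 and 10.4), Cd33, a sialic acid receptor (31.5, 26.8 and 12.9 against 4.74 and 4.46), and Fam124a (30.8, 15 and 9.24 against 0.691 and 0.692). Of the 7, Gng10 varied least relative to its mean over the 3 Balb/cJ libraries, with an SD of 2.57 RPKM. Of these genes, Mcoln3 and Gng10 kept their calls under all alternatives.

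**Figure D2:**
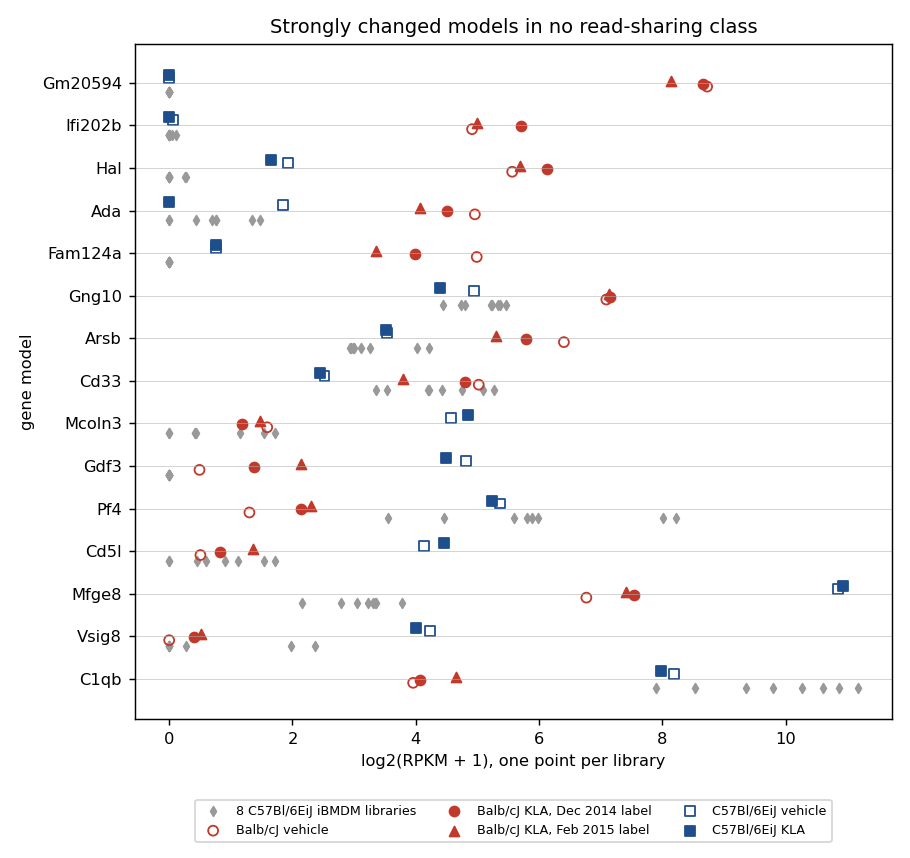
Each row is 1 of 15 strongly changed models in no read-sharing class, and the x axis is log2(RPKM + 1). Red points are the 3 Balb/cJ libraries, blue squares the 2 C57Bl/6EiJ libraries and grey diamonds the 8 iBMDM libraries. Models were chosen so that red and blue points do not overlap, and the February KLA library (triangle) is the Balb/cJ library nearest to C57Bl/6EiJ for C1qb, Cd5l and Gdf3 among others.

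In the lists for the MHC and other clusters that differ between inbred strains, 13 of 81 tested genes were called (16.0%, 10 higher and 3 lower in Balb/cJ), against 2.25% of all models. Many of them belong to families whose members share sequence, and 2 of the 13, H2-Q6 and H2-Q8, count nearly the same reads. All gene lists were chosen with earlier results of these data known in part, so the shares called in them are a description only. H2-Ea-ps, the class II α chain gene that is silent in mice of the H2-b haplotype such as C57Bl/6, measured 22.5, 28.5 and 77.4 RPKM in Balb/cJ and 0 in both C57Bl/6EiJ libraries. With 819 reads against 0, it was at least 163-fold higher in Balb/cJ (floor of 3 reads over the C57Bl/6EiJ libraries), and all 8 iBMDM libraries were also at 0. Its log2 difference was 5.14 ± 0.42 (limma adjusted p = 0.000119). The other class II genes did not follow it. H2-Eb1, the partner chain, measured 11.3, 23.6 and 28.1 RPKM against 43.3 and 42.9 (-1.20 ± 0.32, limma adjusted p = 0.0633, not called). Cd74, the invariant chain, measured 126, 157 and 178 against 256 and 252 (limma adjusted p = 0.137, not called). H2-DMb1, a chain of the peptide-exchange factor DM, was called lower at 1.34, 4.23 and 4.29 RPKM against 26.8 and 14.9 (-2.44 ± 0.40, limma adjusted p = 0.0104), and 32.3% of its 50-base windows are also in H2-DMb2. In 12 of 17 alternatives its call was kept, and leaving out Balb/cJ KLA 1 or C57Bl/6EiJ vehicle ended it.

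Among class I genes, the classical H2-K1 and H2-D1, which present peptides to CD8 T cells on all nucleated cells, were not called. H2-K1 measured 752, 1051 and 943 RPKM in Balb/cJ and 512 and 499 in C57Bl/6EiJ (0.81 ± 0.27, limma adjusted p = 0.12), and its difference passed after the GC trend was removed (1.12, limma adjusted p = 0.0437, the lowest of a range up to 0.542). H2-D1 measured 1343 to 1757 RPKM against 1624 and 1718 (-0.12 ± 0.26, limma adjusted p = 0.81). The 4 calls were non-classical genes, H2-Q5, H2-Q6 and H2-Q8 of the Q region and H2-T24 of the T region. H2-Q6 measured 91.9, 75.6 and 49.7 RPKM against 3.33 and 4.1 (3.96 ± 0.31, limma adjusted p = 0.000112), and the H2-Q8 model at the same place repeated it. H2-Q5 measured 18.1, 36.9 and 19.7 RPKM against 0 and 0.783, with 3 reads in C57Bl/6EiJ and a read-rate ratio of 178 (exact 95% counting interval 60.6 to 863, which covers counting error only). H2-Q1, H2-Q2 and H2-Q10 held 462, 394 and 168 reads in Balb/cJ and 0 in C57Bl/6EiJ, at least 85-fold, 48.7-fold and 33.4-fold higher, with means under the 16 RPKM of the call. H2-T24 was called higher, at 44.8, 40.5 and 33.8 RPKM against 19 and 15.6 (limma adjusted p = 0.0336, kept in 9 of 17 alternatives).

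The Q genes show why a locus cannot always be named. In the reference, 37.4% of the 50-base windows of H2-Q6 are found at another place, most of them in H2-Q7. A window of its coding exons (chr17:35427940-35427989, GRCm38.p6, plus strand) occurs letter for letter in H2-Q7 (chr17:35442343-35442392).
H2-Q6 and H2-Q7: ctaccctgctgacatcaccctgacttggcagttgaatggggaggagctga
H2-Q7 itself measured 5.3, 9.26 and 8.77 RPKM in Balb/cJ against 2.88 and 3.27 (1.00, limma adjusted p = 0.0603, not called).

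Ifi202b, of the interferon-induced PYHIN family of DNA-binding proteins and known to be low in C57Bl/6 mice, measured 29.1, 51.6 and 31 RPKM in Balb/cJ and 0.049 and 0 in C57Bl/6EiJ. The log2 difference was 5.14 ± 0.30 (limma adjusted p = 3.19e-05), with 2075 reads against 1, a read-rate ratio of 1162 (exact 95% counting interval 208 to 45930.3). None of its 50-base windows occurs elsewhere in the reference. Of the other 8 tested members of its cluster none was called, and the list median was 0.61. AI607873, the most abundant of them, measured 195, 189 and 79.3 RPKM against 52.4 and 73.2 (1.23, limma adjusted p = 0.118).

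Receptors encoded in gene clusters differed in both directions. Of 12 tested lectins in the list for the natural killer gene complex, Clec4e (Mincle, a receptor for glycolipids) and Clec4a3 were called higher. The call of Clec4a3 was kept in 9 of 17 alternatives and lost without the GC trend. Klra3, a lectin of this complex that is not in the list, was called higher in every alternative that tested it (log2 difference 3.46). It is in a read-sharing class. Of 19 genes in the list of paired immunoglobulin-like receptors, the activating Pira6 (106, 66.9 and 43.6 RPKM against 8.37 and 6.18) and Pira11 (25.3, 26 and 18.8 against 5.37 and 5) were called higher. Siglec1 and Cd300ld (49.5, 34.7 and 26.2 against 139 and 144) of the same list were called lower. Siglec1 lies on chromosome 2, away from the Pira genes on chromosome 7 and Cd300ld on chromosome 11. Pira11 stands at the place of Pira1 in the table, and Pira6 has no exon structure in the annotation. Other genes chosen for known strain alleles were not called. Nnt, the mitochondrial transhydrogenase that C57Bl/6J mice carry with a deletion, measured 9.65, 10.7 and 9.18 RPKM against 5.59 and 5.76 (0.69 ± 0.25, limma adjusted p = 0.138). Nlrp1b (limma adjusted p = 0.181), Apobec3 (0.124), Glo1 (0.774) and Naip2 (0.427) did not pass, and Naip1, Ly6a and Zhx2 were below the filter.

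Of the 6 genes called higher in the immune lists, Ccl3, Ccl4, Oasl1 and Irg1 were far above their vehicle level in the KLA libraries of both strains. Ccl3, a chemokine for monocytes, measured 84.3 RPKM in Balb/cJ vehicle and 27.8 in C57Bl/6EiJ vehicle, and 2265 and 844 in Balb/cJ KLA 1 and 2 against 375 in C57Bl/6EiJ KLA. Ccl4, its neighbour on chromosome 11, measured 24.1 against 13.1 RPKM in vehicle, and 1863 and 1141 against 321 with KLA. Within each treatment every Balb/cJ value was above that of C57Bl/6EiJ. The log2 differences were 1.75 ± 0.40 (limma adjusted p = 0.0395) and 1.60 ± 0.37 (0.0402), and the calls were kept in 10 and 9 of 17 alternatives. Both calls were lost without the GC trend, at limma adjusted p of 0.0643 and 0.0561 and with log2 differences of 1.65 and 1.63, within ranges of 0.000691 to 0.498 and 3.81e-05 to 0.598.

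Clec4e measured 13.3 against 3.74 RPKM in vehicle and 183 and 103 against 43.2 with KLA (1.62 ± 0.31, limma adjusted p = 0.0228). Oasl1, of the oligoadenylate synthetase family, measured 12.1 against 3.73 in vehicle and 256 and 109 against 14.4 with KLA (2.60 ± 0.48, limma adjusted p = 0.0187). Irg1, the enzyme that makes itaconate, measured 6.29 against 1.87 in vehicle and 824 and 356 against 156 with KLA (1.60 ± 0.37, limma adjusted p = 0.0406). In all 3 genes Balb/cJ was higher within each treatment, and KLA 1 was above KLA 2. Their calls were kept in 13, 13 and 9 of 17 alternatives, and each was lost without Balb/cJ KLA 1. Cxcl13, a chemokine for B cells, measured 29.5, 21.1 and 19.2 RPKM against 13.6 and 6.38 (1.32 ± 0.26, limma adjusted p = 0.0254, kept in 12 of 17 alternatives and lost without the GC trend), and Cxcr4, the receptor of another chemokine, 248, 105 and 81.2 against 56.3 and 30.9 (1.79 ± 0.29, limma adjusted p = 0.01), both at lower values in the KLA than in the vehicle libraries of each strain.

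Beyond these, most immune genes were not called. Oasl1 was the only one of 31 interferon-induced sensors and effectors, and of 22 antiviral restriction factors, 19 genes of the Toll-like receptor pathway and 10 guanylate-binding proteins and IRG GTPases none was called. The list medians were 0.46, 0.27, -0.06 and 0.57 against -0.08 for all models. Above 0 were 21 of 31, 15 of 22, 8 of 19 and 7 of 10 members, and 4322 of all 9848 models. Of 18 chemokines 3 were called higher and Pf4 lower, with a median of 0.57. Of 38 cytokines and receptors Csf1r was called. Gbp2b, a guanylate-binding protein, measured 9.89, 25.6 and 12 RPKM in Balb/cJ and 0 in both C57Bl/6EiJ and all iBMDM libraries, at least 217-fold higher with 1524 reads against 0, and missed the call with a mean of 15.8 RPKM. Over the 9 immune lists, 14 of 183 members were called (7.65%, 6 higher and 8 lower), against 2.25% of all tested models (0.802% higher and 1.45% lower).

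Of 169 tested metabolic genes in 6 lists, 2 were called higher and 12 lower (8.28%), where 2.25% of all tested models were called, 0.802% higher and 1.45% lower. Genes of lipid handling in the list for uptake, efflux and lipoproteins gave 4 lower calls among 31. Lpl, which releases fatty acids from lipoproteins, measured 291, 205 and 97.3 RPKM against 659.5 and 551 (-1.62 ± 0.37, limma adjusted p = 0.0377). Lrp1, a large endocytic receptor, measured 99.3, 94.8 and 126 against 239 and 305 (-1.38 ± 0.28, limma adjusted p = 0.0268). Abca1, the cholesterol exporter, measured 6.32, 12 and 11.3 against 21.2 and 24.2 (-1.26 ± 0.27, limma adjusted p = 0.0298), and Mgll, which cleaves monoglycerides, 20.5, 29.4 and 33 against 58 and 68.2 (-1.26 ± 0.27, limma adjusted p = 0.0297). In all 4 the lower C57Bl/6EiJ library was above the highest of Balb/cJ. The same held for 140 of the 143 models called lower and for 26.4% of all tested models. The calls of these 4 genes were kept in 8 to 10 of 17 alternatives, and those of Lrp1 and Mgll were lost after the GC trend was removed. None of the 30 tested genes of cholesterol and fatty acid synthesis was called (median -0.11).

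Glycolysis had a median of -0.74, the lowest of the 25 lists as deposited. Of its 26 tested members 23 were below 0, against 5526 of all 9848 tested models. Of the same 26, 5 (19.2%) were called lower, against 1.45% of all tested models. At equal library medians the list median was -0.67, and without the GC trend -0.51, where the 8 chemokine and chemoattractant receptors were lower at -0.91. Pfkl, the liver-type phosphofructokinase, measured 11, 8.02 and 13.4 RPKM against 37.7 and 29.7 (-1.54 ± 0.29, limma adjusted p = 0.0215). Ldha, lactate dehydrogenase A, measured 119, 138 and 160.2 against 417 and 339 (-1.45 ± 0.29, limma adjusted p = 0.0249). Eno1, the enolase, measured 6.54, 11.1 and 14.1 against 64.8 and 54.6 (-2.51 ± 0.31, limma adjusted p = 0.00228), with 81.9% of its windows also elsewhere. Gpi1 (-1.08) and Tkt (-1.14) were close to the 2-fold limit and were kept in 3 and 4 of 17 alternatives. Of the 5, Pfkl alone is in no read-sharing class, and 12 of the 26 tested members are in one.

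Alas1, the first enzyme of heme synthesis, was called lower in every alternative, at 23.2, 26.8 and 20.7 RPKM against 88.8 and 133 (-2.21 ± 0.28, limma adjusted p = 0.00265). Prdx2, a peroxidase, was called lower at 19.7, 27.1 and 36.1 RPKM against 59.9 and 62.5 and kept in 6 of 17 alternatives. Of 40 genes of glutathione, aldehyde and drug metabolism none was called. Gpx1, the most abundant, measured 355, 509 and 879 RPKM against 1247 and 1276 (-1.31 ± 0.34, limma adjusted p = 0.0599), with the strains apart, and was called in 5 of 17 alternatives.

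**Figure D3:**
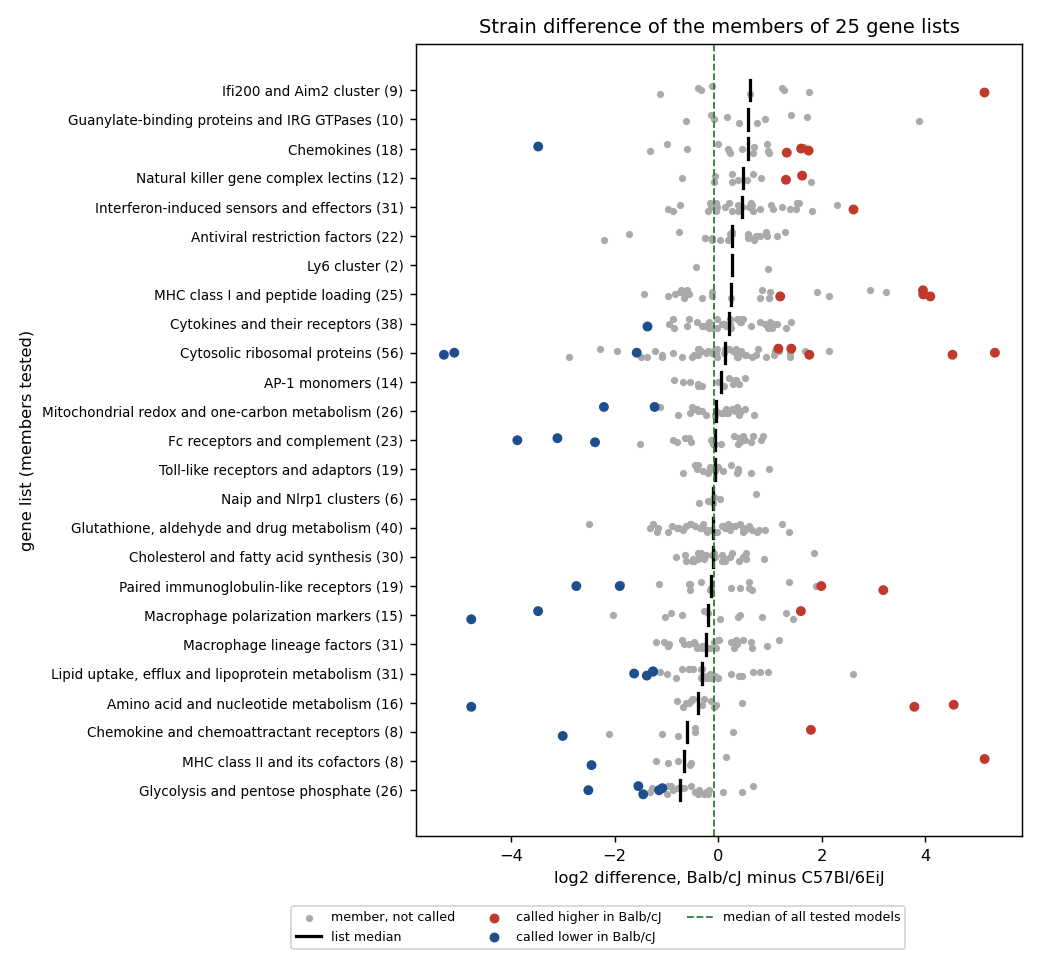
Each row is a gene list with the number of members tested, and each point a member's log2 difference between strains. Red and blue points are members called higher and lower in Balb/cJ, black bars list medians and the green dashed line the median of all tested models, -0.08. The list for glycolysis and pentose phosphate has the lowest median as deposited, -0.74, and that of the Ifi200 and Aim2 cluster the highest, 0.61. Without the GC trend these medians are -0.51 and 0.35 and neither is the extreme.

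The study is about AP-1, the dimeric factors of the Jun, Fos and Atf families. Of its 14 tested monomer genes none was called, a count near the 2.25% of all models, so nothing is read from it. The median was 0.06 and the log2 differences ran from -0.85 to 0.52. Atf3 measured 232, 279.8 and 292 RPKM in Balb/cJ and 259 and 261 in C57Bl/6EiJ (0.01 ± 0.27, limma adjusted p = 0.991). Jun measured 100.0, 76.9 and 87.4 against 71.1 and 171, and Jund 65, 78.9 and 67.2 against 108 and 115, so that Jund was apart between strains and Jun was not (Jund -0.68 ± 0.27, limma adjusted p = 0.171). After the GC trend was removed Jund was at -0.10. Fos, induced by KLA, measured 9 against 8.06 RPKM in vehicle and 34.5 and 71 against 152 with KLA (-0.85 ± 0.43, limma adjusted p = 0.274) and was called in 3 of 17 alternatives. Junb, Fosl2, Atf4 and Jdp2 had limma adjusted p of 0.595, 0.666, 0.52 and 0.705, and Fosl2 was called lower without C57Bl/6EiJ KLA (-1.40, limma adjusted p = 0.0335). The SEs of these genes were 0.27 to 0.46, and a difference below 2-fold is outside the call. Of 31 macrophage lineage factors none was called either (median -0.23). Cebpb, the most abundant, measured 78.1, 251 and 224 RPKM against 269 and 408 (-1.21 ± 0.31, limma adjusted p = 0.0589). It was called in 3 of 17 alternatives, and its difference was -0.48 without the GC trend.

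Models that share reads or a place with another were 25.4% of those tested and held 11 of the 14 called differences of at least 16-fold. Of these 11, 6 are 3 pairs that stand at one place and count the same or nearly the same reads (Atp6v0c, Rpl30 and Rpl26, each with its pseudogene model). Of the 222 called models, 74 were in a read-sharing class (32 higher and 42 lower), and 148 in none. The share called was 12.8% of 47 pseudogenes, 11.4% of 70 models that stand at the same place as another, 3.12% of 1026 models with at least 10% of their 50-base windows found elsewhere, 2.07% of 1306 whose exons overlap another model, and 2.02% of 7344 in no class.

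Atp6v0c, a subunit of the proton pump of lysosomes, measured 0, 0.81 and 0.928 RPKM in Balb/cJ and 94.1 and 77.8 in C57Bl/6EiJ (-5.90 ± 0.31, limma adjusted p = 1.53e-05). The model named for its pseudogene Atp6v0c-ps2 is placed at the same position in the table and measured 0, 0.832 and 0.954 against 96.5 and 79.9. In the reference 86.0% of the 50-base windows of Atp6v0c are also found at the pseudogene on chromosome 6 (37805982 to 37807092). Rpl30, a ribosomal protein gene, measured 0, 0.906 and 2.38 RPKM in Balb/cJ against 77.4 and 58.2, and Rpl26 measured 0, 0.432 and 1.13 against 70.7 and 33.2. In the opposite direction, Rps16 measured 15.4, 29.5 and 27.7 RPKM against 0 and 0, and Rps25 60.5, 158 and 115 against 3.63 and 0.454. A ribosomal protein gene at or near 0 in one strain thus occurred on either side, and in iBMDMs Rps25 measured 149 to 367 RPKM and Rps16 0 to 3.18. Coding windows that these genes share letter for letter with a copy elsewhere show what the counting had to separate, each with its place in the gene and in the copy (GRCm38.p6).
Atp6v0c, chr17:24164548-24164597, minus strand, and Atp6v0c-ps2 on chr6:37806360-37806409: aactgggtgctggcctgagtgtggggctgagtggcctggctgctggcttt
Rpl30, chr15:34441296-34441345, minus strand, and Gm12191 on chr11:49678824-49678873: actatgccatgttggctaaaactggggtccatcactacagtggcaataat
Rpl26, chr11:68903199-68903248, plus strand, and Gm15772 on chr5:3236619-3236668: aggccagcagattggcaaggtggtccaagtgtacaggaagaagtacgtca
Rps16, chr7:28352223-28352272, plus strand, and Rps16-ps2 on chr5:129128272-129128321: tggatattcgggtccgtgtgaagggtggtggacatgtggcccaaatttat
Rps25, chr9:44408706-44408755, plus strand, and Gm2225 on chr8:78486243-78486292: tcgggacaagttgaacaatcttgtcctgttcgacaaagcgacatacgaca
The share of windows found elsewhere was 66.4% for Rpl30, 81.0% for Rpl26, 79.0% for Rps16 and 51.6% for Rps25. Of 56 tested ribosomal protein genes 51 are in a read-sharing class, and the list median was 0.13. The share called was 14.3%, against 2.25% of all tested models (0.802% higher and 1.45% lower). Called higher were 5 genes (Rps25, Rps16, Rpl14, Rpl13 and Rpl7) and lower 3 (Rpl30, Rpl26 and Rplp2). Whether the strain genome used for alignment moved these reads was not tested.

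Gm20594 had the largest difference of all tested models, 423, 404 and 282 RPKM in Balb/cJ and 0 in both C57Bl/6EiJ and all 8 iBMDM libraries. With 3262 reads against 0 it was at least 600.2-fold higher (8.54 ± 0.29, limma adjusted p = 6.15e-07). It is a model of 334 bases on chromosome 6 (79818031 to 79818364, plus strand) and has no exact 50-base match elsewhere. Its sequence aligned to the mitochondrial 16S ribosomal RNA gene mt-Rnr2 at 90.3% identity, with 290 identical, 24 mismatched and 7 gapped bases.

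**Figure D4:**
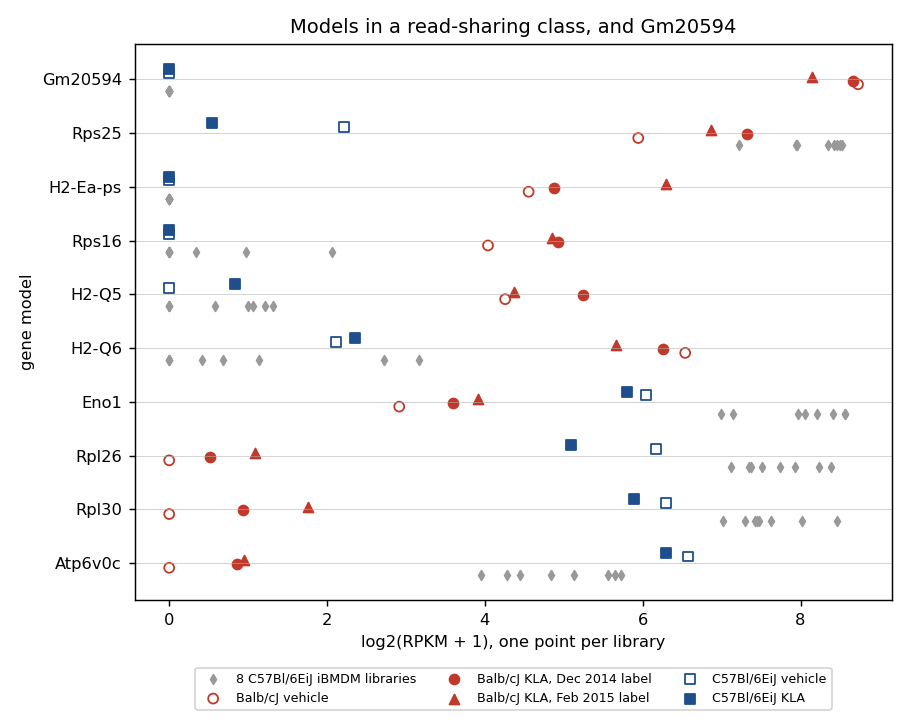
Each row is a model in a read-sharing class, or Gm20594, and the x axis is log2(RPKM + 1). Red points are the 3 Balb/cJ libraries, blue squares the 2 C57Bl/6EiJ libraries and grey diamonds the 8 iBMDM libraries. Atp6v0c, Rpl30 and Rpl26 are near 0 in Balb/cJ alone, and Rps16, H2-Ea-ps and Gm20594 are at 0 in both C57Bl/6EiJ libraries.

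Strain differences fell as the GC content of the exons rose. Across 9754 models, which are not independent replicates, Spearman's rho was -0.457. With the models in 3 equal classes by GC content, 37 of the lowest class (33.5% to 47.4%) were called higher and 7 lower, 29 and 34 of the middle class, and 9 and 97 of the highest (53.5% to 70.9%). Once each library's trend against the mean of the libraries was removed rho was 0.002, and 109 of the 222 calls were kept, 49 higher and 60 lower. Called models without exons in the annotation, such as H2-Ea-ps, H2-Q8 and Pira6, are among the 222 but could not be tested there. C1qb (57.5% GC), Mfge8 (57.6%) and Alas1 (53.5%) stayed called, at -3.49, -3.33 and -2.0. Lrp1 (57.9%), Pfkl (57.1%), Tkt (54.0%) and Gpi1 (53.5%) did not, with -0.98, -1.17, -0.91 and -0.87 left of log2 differences of -1.38, -1.54, -1.14 and -1.08. GC content and strain move together in these 5 libraries, and the part of GC in any single difference was not tested beyond this removal.

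**Figure D5:**
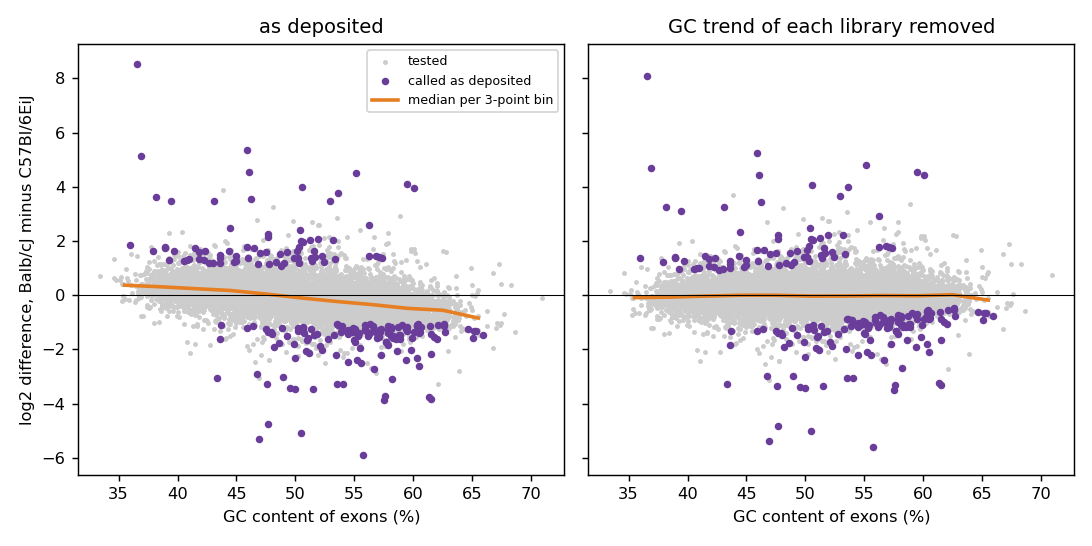
Each point is 1 of 9754 tested models with exons in the annotation. The x axis is exon GC content in percent and the y axis the log2 difference between strains, on the left as deposited and on the right after the GC trend of each library was removed. Purple points are the models called as deposited, and the orange line is the median per bin of 3 percentage points, which falls with GC on the left and is flat near 0 on the right up to its last bin.

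The Balb/cJ KLA libraries, of different label dates, are the only pair of the same strain and treatment. Their log2 values differed by a median of 0.29 in absolute size over all tested models, and 344 models differed by at least 2-fold. The median of the strain difference was 0.36. It is an unlike measure, since it is fitted over 5 libraries and the other is a difference of 2 single libraries. Between the Balb/cJ KLA libraries H2-Ea-ps differed by -1.41, Ccl3 by 1.42, and Mfge8, Gng10 and Atf3 by 0.13, 0.01 and -0.06. The date difference had a rho with GC of -0.113.

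A set of 39 called models (16 higher and 23 lower) was called under every alternative that tested them, and 21 of these (5 higher and 16 lower) are in no read-sharing class. The 5 higher are Gm20594, Ifi202b, Hal, Ada and Gng10. Those lower include C1qb, C1qc, Mfge8, Cd5l, Pf4, Mcoln3, Siglec1 and Alas1. Libraries of the strains did not overlap for 194 of the 222 called models (54 higher and 140 lower), where 35.5% of all tested models did not overlap, 9.12% with Balb/cJ higher and 26.4% with Balb/cJ lower.

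The response to KLA was compared between strains with an interaction term, fitted with 1 residual degree of freedom. It called 49 models (0.498% of those tested), 38 with the change under KLA more positive in Balb/cJ and 11 with it more negative. That count was 42 with a pseudocount of 5, 4 when the iBMDM libraries joined the fit (13 in all) and 0 at equal library medians, where limma gave 1189 models an unadjusted p under 0.05. Of these, Gbp5, a guanylate-binding protein, went from 1.14 to 103 and 35.3 RPKM in Balb/cJ and from 0.437 to 9.3 in C57Bl/6EiJ (interaction 2.01 ± 0.58). Cd14, a coreceptor of TLR4, went from 18.3 to 449.8 and 567 RPKM in Balb/cJ and from 44.8 to 238 in C57Bl/6EiJ (2.33 ± 0.70). In both genes vehicle and KLA differed in both strains, and the vehicle level of each strain rests on 1 library.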

How the data were processed

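PolyA RNA-seq of 13 libraries was available, and the 5 of elicited macrophages were compared. GRO-seq (4 samples) was not used here. STAR with default settings was used by the authors for alignment, to mm10 for C57Bl/6EiJ and to a strain genome derived from it for Balb/cJ, and the deposited RPKM come from HOMER over the exons of RefSeq genes, condensed per gene. Versions and a strand option are not given in the sources used here.

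Tested were autosomal models of at least 200 bases with a mean of at least 1 RPKM, 9848 of 24453. Using limma 3.58.1 in R 4.3.3, log2(RPKM + 1) was fitted with strain and treatment (limma-trend, two-sided, Benjamini-Hochberg adjustment over all tested models, 2 residual degrees of freedom). Labels name no separate animals, so p values measure the spread between these libraries, which may be technical. In simulated libraries with 200 of 9848 genes changed 4-fold, 195 were called, with 0 unchanged ones. The changed genes were drawn from those averaging 16 RPKM or more, and noise was independent between genes and libraries. No GC trend, date effect, alignment genome or shared reads were simulated, so false calls in the real libraries are not measured by it.

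Whole reads were recovered from the RPKM steps (100% of values up to 50 reads within 0.05 of a whole number) and gave depth, read counts, a floor of 3 reads over a group and exact 95% intervals, which cover counting error only. Read-sharing classes used 50-base windows of the GRCm38.p6 exons (at least 10% found elsewhere), overlapping exons, pseudogene names and models without exons at the place of another. The GC trend was a natural spline with 5 degrees of freedom per library, relative to the mean of the libraries. Balb/cJ KLA libraries are numbered in accession order. The pair differed by more than counting error (chi-square per degree of freedom 86.3).

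Named are, of models whose libraries do not overlap, the 8 higher and 8 lower with the largest change in no read-sharing class and the 5 of each in one, called members of each list (at most 6), a set of genes with known strain alleles or roles, the AP-1 monomers of at least 16 RPKM, and the most abundant member of lists without a call. H2-Eb1, Cd74, H2-Q1, H2-Q2, H2-Q7, H2-Q10, AI607873, Klra3, Gbp2b, the markers and the genes in the other observations were singled out after their values were seen. Some models that this rule selects are not reported here. The comparison and the lists were chosen with earlier results of these data known. Alternatives changed the pseudocount, filters, scaling, GC correction, covariate, test and libraries. Python 3.11.15 was used for the rest.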

Additional observations from a re-analysis of the deposited data

Results flagged for a closer look

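The change under KLA differed between strains by the interaction term in 49 models. Among them, beside Il1b, Ifit1 and Rsad2 of the other observations, were Rps25 (log2 interaction 2.82), Cd14 (2.33), Gbp5 (2.01), H2-DMb1 (1.97), Gm15772 (1.90) and Rpl26 (1.87), where a positive term means a more positive change under KLA in Balb/cJ. Gm15772 and Rpl26 stand at the same place and count the same reads, with 8 in Balb/cJ. Rpl26 went from 0 to 0.432 and 1.13 RPKM in Balb/cJ and from 70.7 to 33.2 in C57Bl/6EiJ. Rps25 went from 60.5 to 158 and 115 RPKM in Balb/cJ and from 3.63 to 0.454 in C57Bl/6EiJ. At equal library medians 0 of 9848 models were called in limma's interaction fit, with 1189 at an unadjusted p under 0.05, and with all 13 libraries 4 were. The fit has 1 residual degree of freedom, and both vehicle groups are single libraries.

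Outside the autosomal comparison, Xist was read in all 5 elicited libraries, which are labelled male, at 19.2 RPKM in the lowest. Reads of Xist numbered 863 to 8676 there, and Eif2s3y, on the Y chromosome, had 15 reads in C57Bl/6EiJ vehicle and 0 in the other 4. The 8 iBMDM libraries held Xist at 0 to 0.029 RPKM and Eif2s3y at 20.4 to 45.9.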

How the results depend on the processing

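The count of 222 called models (79 higher and 143 lower in Balb/cJ) moved with the call rule, the filters, the libraries and the fit. It was 54 without a filter on low values, 55 without the treatment covariate, 120 with all chromosomes and lengths, 120 after removal of the GC trend, 64 at 4-fold, 485 without the RPKM minimum and 336 with limma-voom on the recovered reads. Leaving out 1 library gave 43 (without Balb/cJ KLA 1) to 436 (without C57Bl/6EiJ KLA), and a group left with 1 library was assumed to have the spread of the rest. Without Balb/cJ vehicle the split was 104 higher and 88 lower, without C57Bl/6EiJ vehicle 103 and 86, without Balb/cJ KLA 2 149 and 150, and with the KLA libraries alone 104 and 87. Quantile normalization gave 78 and 90. The interaction count of 49 was 0 at equal library medians and 4 with all 13 libraries. With 30-base windows 84 of the called models fell in a read-sharing class in place of 74. Of the 60 named models that were called, 27 lost their call in no alternative, 12 lost it after removal of the GC trend, 30 without Balb/cJ KLA 1 and 0 changed sign. No paired analysis was possible because no label date holds both strains and the labels of these libraries carry no replicate numbers. The depth of Balb/cJ vehicle, 2342456 reads, limits what can be said of low genes.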

Other observations

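Of 148 called models in no read-sharing class, 23 (15.5%) had another called model of that kind within 250 kb, against 679 of 7196 (9.44%) of those not called. The 17 such pairs changed in the same direction in 17 cases, but 9 of them come from 2 clusters (Cd300ld to Tmem104 and the C1q chains), and 101 of the 148 models were lower in Balb/cJ. They include Slamf8 and Vsig8 on chromosome 1 (log2 differences -1.32 and -3.85), Gpc1 and Gpr35 on chromosome 1 (-2.61 and -2.33), Cd300ld with Nat9, Slc9a3r1 and Tmem104 on chromosome 11 (-1.90, -1.14, -1.61 and -1.72), Optn and Phyh on chromosome 2 (1.41 and 1.38), and Cnrip1 and Plek on chromosome 11 (1.54 and 1.33).

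Some low genes outside the call were read in 1 strain alone. Trim12a, of the TRIM family of restriction factors, measured 3.53 and 3.65 RPKM in C57Bl/6EiJ and 0 in all 3 Balb/cJ libraries, at least 47.5-fold lower, and 9.68 to 14.7 RPKM in iBMDMs. Gdf15, a stress-induced cytokine of the TGF-β family, measured 2.37, 54.7 and 54.9 RPKM in Balb/cJ vehicle, KLA 1 and KLA 2 and 35.9 and 877 in C57Bl/6EiJ vehicle and KLA (-3.75 ± 0.27, limma adjusted p = 0.000109), and was outside the rule for named genes because the libraries of both strains overlap. Among genes with an interaction call, Il1b, the precursor of interleukin 1β, went from 3.19 to 1899 and 1719 RPKM in Balb/cJ and from 4.45 to 424 in C57Bl/6EiJ (interaction 2.47). Ifit1, an interferon-induced sensor of foreign RNA, went from 1.3 to 99.1 and 33.7 RPKM and from 1.3 to 5.6 (3.16), and Rsad2 (viperin) from 8.48 to 177.6 and 51.3 and from 12.3 to 19.8 (2.70). In all 3 the vehicle levels of the strains were close and the KLA levels were higher in Balb/cJ.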
